A study of Homo sapiens with 6 samples.

Results

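Genes of the machinery that anchors basal keratinocytes to the basement membrane were examined in maps of FOSL2 and JUNB binding in HaCaT, a human skin keratinocyte line that became immortal spontaneously in culture. The 7 genes were LAMA3, LAMB3, COL17A1, COL7A1, ITGA6, ITGB4 and CD151, taken by name from 19974 protein-coding genes. Their regions were all deposited binding regions inside the gene body or within 50 kb of it, which gave 82 of 75703 FOSL2 regions and 52 of 40061 JUNB regions. Binding was measured by ChIP-seq, and the libraries were prepared by ChIPmentation, where a transposase inserts adapters directly into the immunoprecipitated chromatin. The 6 libraries were 3 for FOSL2 and 3 for JUNB, all from HaCaT cells grown in serum-containing medium with no treatment labelled, and the antibodies of the factors came from different suppliers. A single list of regions per factor stood for its 3 libraries. No replicate error can therefore be given for any value, the depth per library is unknown, and no difference was tested. HaCaT is 1 immortalised line, and expression of the 7 genes was not measured.

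Hemidesmosomes are the junctions that rivet basal keratinocytes to the basement membrane. The integrin made of the ITGA6 and ITGB4 products spans the plasma membrane and binds laminin-332 outside the cell, and LAMA3 and LAMB3 encode the alpha and beta chains of that laminin. COL17A1 encodes the transmembrane collagen of the hemidesmosome, COL7A1 the collagen of the anchoring fibrils beneath it, and CD151 a tetraspanin that associates with laminin-binding integrins. FOSL2 belongs to the FOS family and JUNB to the JUN family, whose members pair to form AP-1, a transcription factor that binds DNA at the letters TGANTCA.

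A total of 3 RefSeq start windows of these genes held the summits of both factors, and their sequences are shown because the summit of each region, its point of highest signal, lies within such a window. Each window runs from 250 bases before to 50 bases from a start listed by RefSeq (GRCh38.p14, which shares chromosome coordinates with hg38), 5′ to 3′ on the gene's strand. Capitals mark TGANTCA, a palindrome that reads alike on both strands. The windows are chr18:23872770-23873069 on the plus strand (LAMA3, a start inside the gene), chr1:209651325-209651624 on the minus strand (LAMB3, the innermost of its listed starts) and chr10:104085831-104086130 on the minus strand (COL17A1).
LAMA3: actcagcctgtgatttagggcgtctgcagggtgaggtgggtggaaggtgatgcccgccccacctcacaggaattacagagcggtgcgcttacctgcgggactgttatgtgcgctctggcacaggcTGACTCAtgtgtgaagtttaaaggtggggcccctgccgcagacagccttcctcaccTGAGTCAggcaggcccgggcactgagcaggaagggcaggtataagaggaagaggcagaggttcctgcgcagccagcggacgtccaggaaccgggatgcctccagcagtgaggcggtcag
LAMB3: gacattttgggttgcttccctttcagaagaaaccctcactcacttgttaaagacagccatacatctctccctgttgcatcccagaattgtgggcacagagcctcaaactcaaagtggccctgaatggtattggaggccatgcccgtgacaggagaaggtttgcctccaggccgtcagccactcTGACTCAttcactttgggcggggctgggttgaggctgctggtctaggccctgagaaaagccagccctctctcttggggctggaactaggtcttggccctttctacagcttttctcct
COL17A1: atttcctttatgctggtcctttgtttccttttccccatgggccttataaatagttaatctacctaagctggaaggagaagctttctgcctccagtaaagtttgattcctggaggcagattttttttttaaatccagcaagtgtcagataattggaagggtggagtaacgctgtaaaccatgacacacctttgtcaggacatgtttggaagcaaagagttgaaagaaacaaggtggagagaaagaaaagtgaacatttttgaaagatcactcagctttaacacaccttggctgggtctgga

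The LAMA3 window carried a pair of AP-1 matches, TGACTCA centred 122 bases upstream of the start and TGAGTCA centred 66 bases upstream. The FOSL2 summit lay 211 bases and the JUNB summit 181 bases upstream of the start, 89 and 59 bases from the nearer match. The LAMB3 window carried 1 match, TGACTCA centred 64 bases upstream, with the FOSL2 summit 29 bases and the JUNB summit 10 bases from it. The COL17A1 window had no match, and its summits lay 19 bases (FOSL2) and 26 bases (JUNB) upstream of the start. The letters occurred in 2 of the 8 listed windows of 5 members, against 7.68% of all 34961 windows in the table. Among windows that held a summit of each factor from regions overlapping the other factor, 2 of the 3 member windows had a match, against 28.2% of all 1688 such windows. Of the 29445 windows without a summit of either factor 6.17% had one. TGACGTCA, the related cyclic AMP response element, was searched too and was in none of the 8 windows, against 1.85% of all windows. A match is a description of the sequence and not a mapped site.

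**Figure D1:**
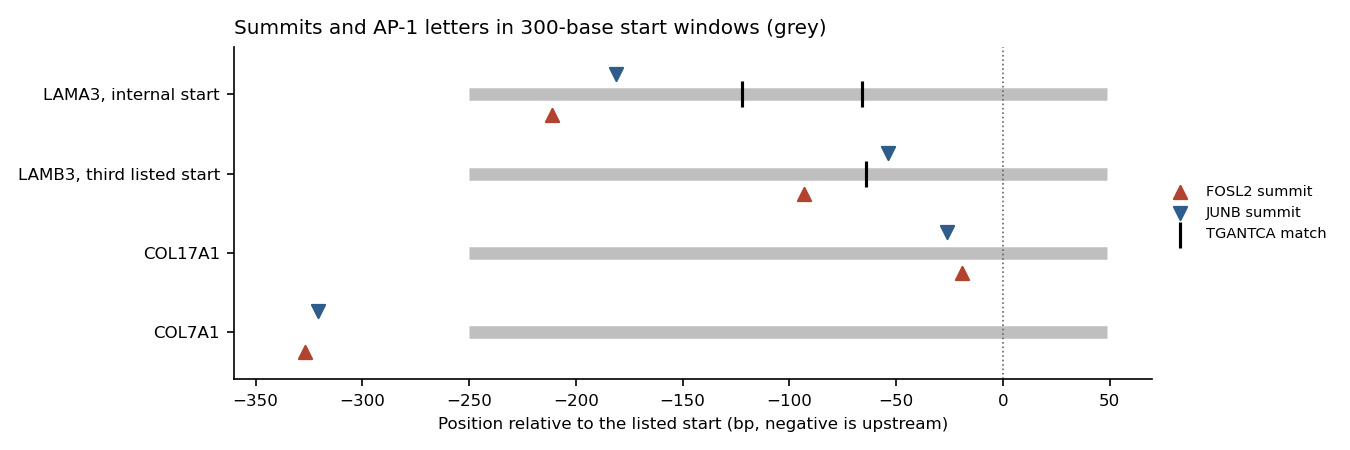
Position of FOSL2 summits (red triangles pointing up), JUNB summits (blue triangles pointing down) and TGANTCA matches (black ticks) relative to listed starts, in bp, with the 300-base windows in grey. Both summits fall inside the windows of LAMA3, LAMB3 and COL17A1, and at COL7A1 they lie 327 bp (FOSL2) and 321 bp (JUNB) upstream, outside the window.

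All 7 genes had regions of both factors and at least 1 place bound by both. Such a place is called shared here when a FOSL2 and a JUNB region had at least 1 bp in common. A reach of 50 kb is wide, and 92.9% of all protein-coding genes had a FOSL2 region within it, 83.9% a JUNB region and 77.5% a shared one, so the presence of a region says little about these genes. The number of regions ran from 5 at CD151 to 23 at LAMA3 for FOSL2, with a median of 10 against 5 over all genes, and from 3 at COL7A1 to 15 at LAMA3 for JUNB, with a median of 6 against 3. LAMA3 is also the longest member, at 266 kb, and CD151 the shortest, at 5.88 kb. Per Mb of searched window the FOSL2 regions numbered 47.2 (CD151) to 87.2 (LAMB3), and the JUNB regions 22.3 (ITGA6) to 73.3 (ITGB4). Those densities stood between the 68.4th and 96.2nd percentile of all protein-coding genes for FOSL2 and between the 55.8th and 97.6th for JUNB.

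Of the FOSL2 regions around the 7 genes 42 of 82 were shared (51.2%, 95% Wilson interval 40.6 to 61.7), against 41.1% of the whole FOSL2 list. Of the JUNB regions 42 of 52 were shared (80.8%, 68.1 to 89.2), against 78.5% of the whole JUNB list. Both intervals included the share of the whole list. They cover counting error only and treat the regions as independent, although the regions cluster around 7 genes, so they are no test of a difference. The shared share of FOSL2 regions differed among genes, from 2 of 10 at COL7A1 to 8 of 10 at ITGB4. The shared share of JUNB regions ran from 2 of 5 at CD151 to 6 of 6 at COL17A1 and 4 of 4 at ITGA6. In the 42 shared places the median distance between the summits was 26.5 bp, with 29 pairs within 50 bp and the widest 166 bp apart, against a median of 31 bp over both lists.

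Binding strength is given as the authors' fold enrichment of each region over background, and it was compared within each list only. The FOSL2 regions of the 7 genes had a median of 5.14 (range 1.92 to 10.2), against 5.56 for the whole list, and 36 of 82 exceeded that list median. The JUNB regions had a median of 4.77 (range 2.26 to 8.63), against 4.79 for the whole list, and 25 of 52 exceeded it. Above the 75th percentile of its list stood 13 FOSL2 regions (15.9%) and 9 JUNB regions (17.3%), against 25% of each whole list. Above the 90th percentile stood 1 FOSL2 region (1.22%) and 4 JUNB regions (7.69%), against 10% of each whole list. Shared regions had medians of 6.63 (FOSL2) and 5.21 (JUNB), and unshared ones of 4.17 and 2.77, in the same order as in the whole lists, at 7.85 and 5.31 for shared and 4.40 and 3.45 for unshared regions. In 23 of the 42 shared places (54.8%) both regions were above the 50th percentile of their lists, against 56.2% of all 31460 overlapping pairs of the lists. In 14 places (33.3%) both were below it, against 18.6% of all pairs. In 5 places (11.9%), at LAMA3, LAMB3, COL17A1 and ITGB4, both were above the 75th, against 26.5% of all pairs.

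**Figure D2:**
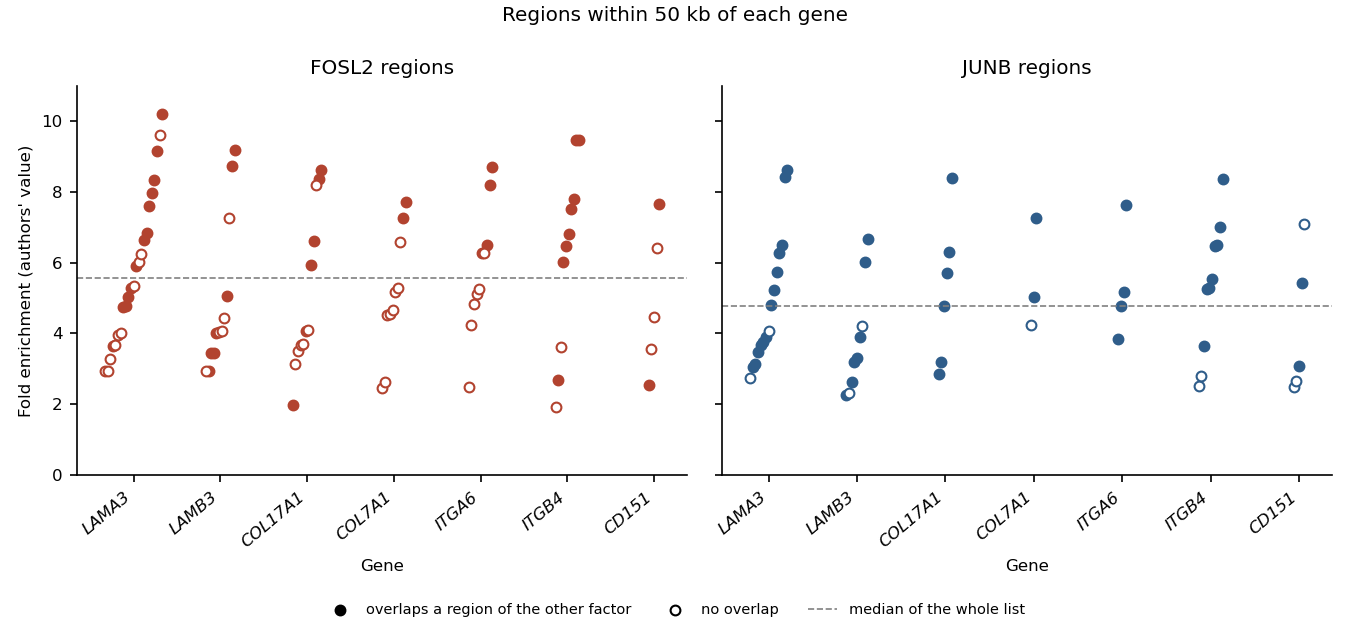
Fold enrichment of every FOSL2 (left) and JUNB (right) region within 50 kb of the 7 genes, with filled points for regions that overlap one of the other factor, open points for the others and a dashed line at the median of the whole list. Every gene has FOSL2 and JUNB points on both sides of the dashed lines, and the highest JUNB point of CD151, at 7.10, is open.

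By the place of the summit, 6 FOSL2 regions lay within 1000 bp of an end of a member, 30 inside its body and 46 outside it. For JUNB these numbers were 7, 19 and 26. As shares this was 7.32%, 36.6% and 56.1% for FOSL2, where all 114279 pairs of a region and a protein-coding gene within 50 kb gave 5.17%, 31.6% and 63.2%. For JUNB it was 13.5%, 36.5% and 50%, where all 69180 pairs gave 8.61%, 26.6% and 64.7%. A FOSL2 summit was at an end of 4 of the 7 genes (27% of all genes) and a JUNB summit at an end of 5 (27.1%). LAMB3, COL17A1, COL7A1 and ITGB4 had a shared place with both summits at an end, which 14.6% of all genes had. With listed RefSeq starts counted beside gene ends, a choice made after seeing the data, LAMA3 joined them, giving 5 of 7 members against 16.4% of all genes. ITGA6 had none by either rule. CD151 had none at its gene ends, and it had no listed start in the source used, so the second rule could not add to it. Genes without a listed start, among them CD151 and ITGB4, were kept in both of these shares.

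LAMA3, the gene of the laminin alpha chain, lies on chromosome 18 from 23689453 to 23955066, on the plus strand, and had 23 FOSL2 and 15 JUNB regions. Neither end of the gene body had a summit within 1000 bp. Its strongest JUNB region sat on the listed start 184 kb inside the gene, from 23872253 to 23873480, with a fold enrichment of 8.63 (92.1st percentile of the JUNB list), over a FOSL2 region of 8.33 (77.2nd percentile of the FOSL2 list). This is the window with the pair of AP-1 matches printed above. The regions inside the gene fell into groups. The first 30.9 kb held 6 FOSL2 and 4 JUNB regions, and all 4 JUNB regions were shared, among them a place with fold enrichments of 7.98 (FOSL2) and 8.42 (JUNB). No FOSL2 region followed for 85.5 kb, and the only JUNB region in that stretch was unshared, at 4.07. Between that stretch and the internal start, with the start itself included, stood 8 FOSL2 and 4 JUNB regions, and again all 4 JUNB regions were shared. Beyond the start, the rest of the gene held 2 FOSL2 regions and 1 JUNB region, none shared.

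The highest FOSL2 value of the gene was outside it, 10.2 at a summit 15.6 kb below the lower end, over a JUNB region of 6.50, and the nearest protein-coding gene there was ANKRD29. A strong FOSL2 region without JUNB lay inside LAMA3, from 23827514 to 23829201, with a fold enrichment of 9.61 and the nearest JUNB region 15.7 kb away. Of the 10019 FOSL2 regions at or above that value, 17.2% had no JUNB region.

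**Figure D3:**
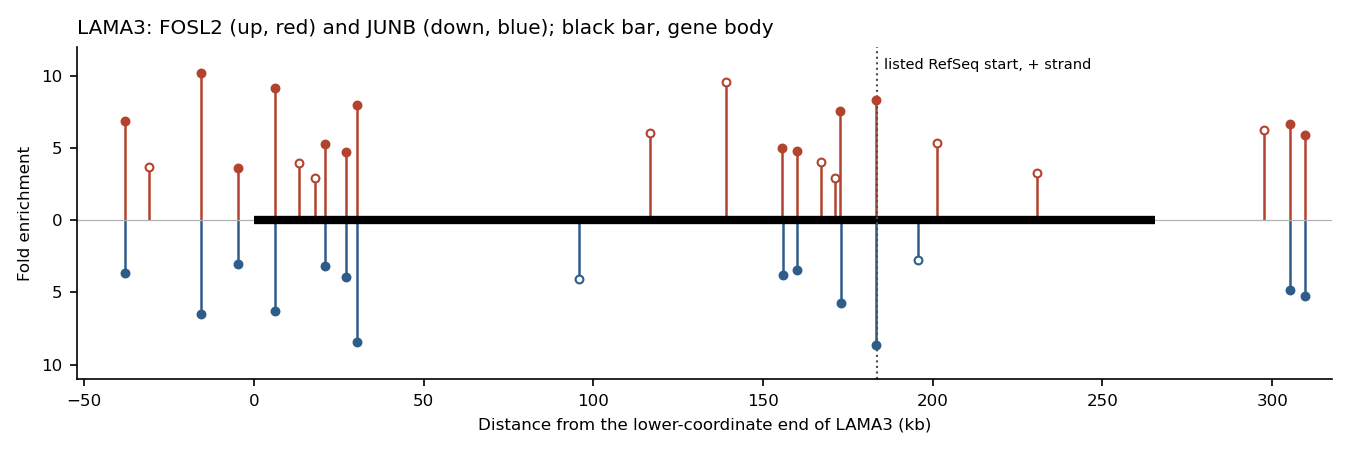
Summits of FOSL2 regions (red, up) and JUNB regions (blue, down) around LAMA3 by distance from its lower-coordinate end in kb, with fold enrichment as the height, filled points for shared regions, the gene body as a black bar and a dotted line at the listed internal start. The shared regions inside the gene stand in its first 30.9 kb and before or at the internal start.

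LAMB3, the gene of the laminin beta chain, lies on chromosome 1 from 209614870 to 209652425, on the minus strand, so that its starts are at the upper end. It had 12 FOSL2 and 9 JUNB regions, and 7 places were shared. The shared place at the innermost listed start, with the AP-1 match 10 bases from the JUNB summit, had a fold enrichment of only 4.02 for FOSL2 and of 3.89 for JUNB, at the 27.9th and 30.9th percentile of their lists. Another FOSL2 region lay beyond the upper end, from 209652481 to 209653461, at 4.05 and without JUNB. The strongest places of the window were far below the gene, where CAMK1G was the nearest protein-coding gene. A summit 26.9 kb below the lower end had 9.20 (FOSL2) and 6.02 (JUNB), and a pair of summits 46.9 kb (FOSL2) and 47.0 kb (JUNB) below it had 8.73 and 6.67.

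The regions near the LAMB3 starts ranked low by fold enrichment and higher by the authors' p-value. The shared region at the innermost start was at the 80.4th percentile of −log10 p in the FOSL2 list and at the 77.3rd in the JUNB list. A percentile of −log10 p at least 40 points above that of fold enrichment occurred in 4 of the 82 FOSL2 regions and 2 of the 52 JUNB regions of the 7 genes. All of these lay around LAMB3, between 209649129 and 209656190. In the whole lists 0.481% of FOSL2 regions and 0.247% of JUNB regions had such a gap. The limit of 40 points was chosen after seeing the values, and that only LAMB3 regions passed it depends on this choice. A FOSL2 region inside ITGA6 came close, at the 81.6th percentile of −log10 p and the 44.3rd of fold enrichment. The regions that passed are neighbours at a single locus and not independent cases. What sets the difference between the rankings was not tested.

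**Figure D4:**
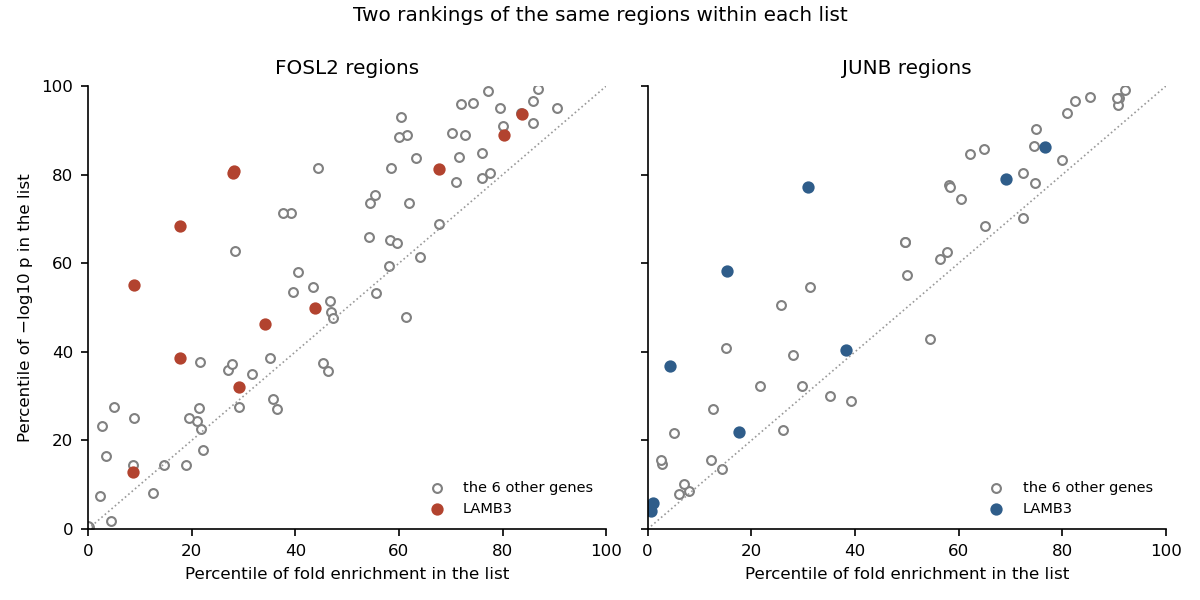
Percentile of −log10 p against percentile of fold enrichment, each within the whole list, for FOSL2 regions (left) and JUNB regions (right) of LAMB3 (filled) and the 6 other genes (open), with a dotted line where the percentiles are equal. Of the LAMB3 regions 4 FOSL2 and 2 JUNB points lie at least 40 points above the line.

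COL17A1, the gene of the hemidesmosomal collagen, lies on chromosome 10 from 104031286 to 104085880, on the minus strand, and had 12 FOSL2 and 6 JUNB regions. All 6 JUNB regions were shared and lay at the start or upstream of it, and none lay elsewhere in the gene. At the start itself the fold enrichments were 5.94 (FOSL2) and 4.77 (JUNB), near the middle of both lists. The strongest place was upstream, with summits 8.03 kb (FOSL2) and 7.94 kb (JUNB) beyond the start, fold enrichments of 8.62 and 8.39, and a JUNB region from 104093512 to 104094350. The shared places farther upstream reached 8.37 (FOSL2) and 6.30 (JUNB) at 24.2 kb and 6.61 and 5.72 at 32.1 kb, where SFR1 was the nearest gene. A FOSL2 region of 8.21, with its summit 13.6 kb upstream, had no JUNB region.

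COL7A1, the gene of the anchoring-fibril collagen, was the member with a shared place at both of its ends. It lies on chromosome 3 from 48564073 to 48595329, on the minus strand, and had 10 FOSL2 and 3 JUNB regions. At its start the summits lay 327 bp (FOSL2) and 321 bp (JUNB) upstream, with fold enrichments of 7.71 and 7.28, the highest of the gene for both factors. At its other end the summits lay 137 bp (FOSL2) and 120 bp (JUNB) inside the gene, with fold enrichments of 7.26 and 5.03. The remaining 8 FOSL2 regions, up to 6.59, were unshared, as was the remaining JUNB region, at 4.24. The searched window also held 6 other protein-coding genes. Whether the shared place at the other end also lies at an end of a neighbouring gene was not examined, so it cannot be assigned to COL7A1 alone.

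The 2 subunits of the hemidesmosomal integrin differed in where their regions lay. ITGA6, on chromosome 2 from 172427336 to 172506459 and on the plus strand, had 10 FOSL2 and 4 JUNB regions. No summit lay within 1000 bp of its ends, and all 4 JUNB regions were inside the gene and shared. These places followed the start at 3.56, 14.9, 23 and 37.2 kb by their FOSL2 summits. Their FOSL2 fold enrichments were 8.70, 6.49, 6.27 and 8.20 in that order, and their JUNB fold enrichments were 4.77, 7.62, 3.83 and 5.18. The strongest JUNB region was thus the second of these, and the strongest FOSL2 region the first.

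ITGB4, on chromosome 17 from 75721459 to 75757818, had 10 FOSL2 and 10 JUNB regions, 8 of each shared. At its lower-coordinate end the summits lay 88 bp (FOSL2) and 151 bp (JUNB) outside the gene, with fold enrichments of 7.53 and 5.27. A weaker JUNB region at that end, at 2.51, was unshared. Inside the gene the values were lower, at most 3.63 for FOSL2 and 3.65 for JUNB. The strongest places were outside, below the lower end. Summits at 20.9 kb (FOSL2) and 20.8 kb (JUNB) had 9.47 and 8.36, and summits at 14.2 kb for both factors had 9.48 and 7.0. Here SAP30BP was the nearest protein-coding gene, so these regions cannot be assigned to ITGB4 by distance.

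CD151, the tetraspanin gene, lies on chromosome 11 from 832952 to 838831 and was the member with JUNB and no FOSL2 region in or at the gene. Its 3 JUNB regions there had fold enrichments of 2.67, 2.49 and 7.10. The strongest ran from 834433 to 835374, at the 81.0th percentile of the JUNB list, and the nearest FOSL2 region was 8.54 kb away. Of the 7609 JUNB regions at or above that value, 224 (2.94%) had no FOSL2 region. The 2 shared places of its window were below the gene, nearest to PNPLA2, the stronger with a FOSL2 value of 7.67 and a JUNB value of 5.43 at summits 11.6 kb below the lower end. The window of this short gene held 10 other protein-coding genes. Absence from a list means that no region passed the authors' criteria, not that the factor was absent.

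**Figure D5:**
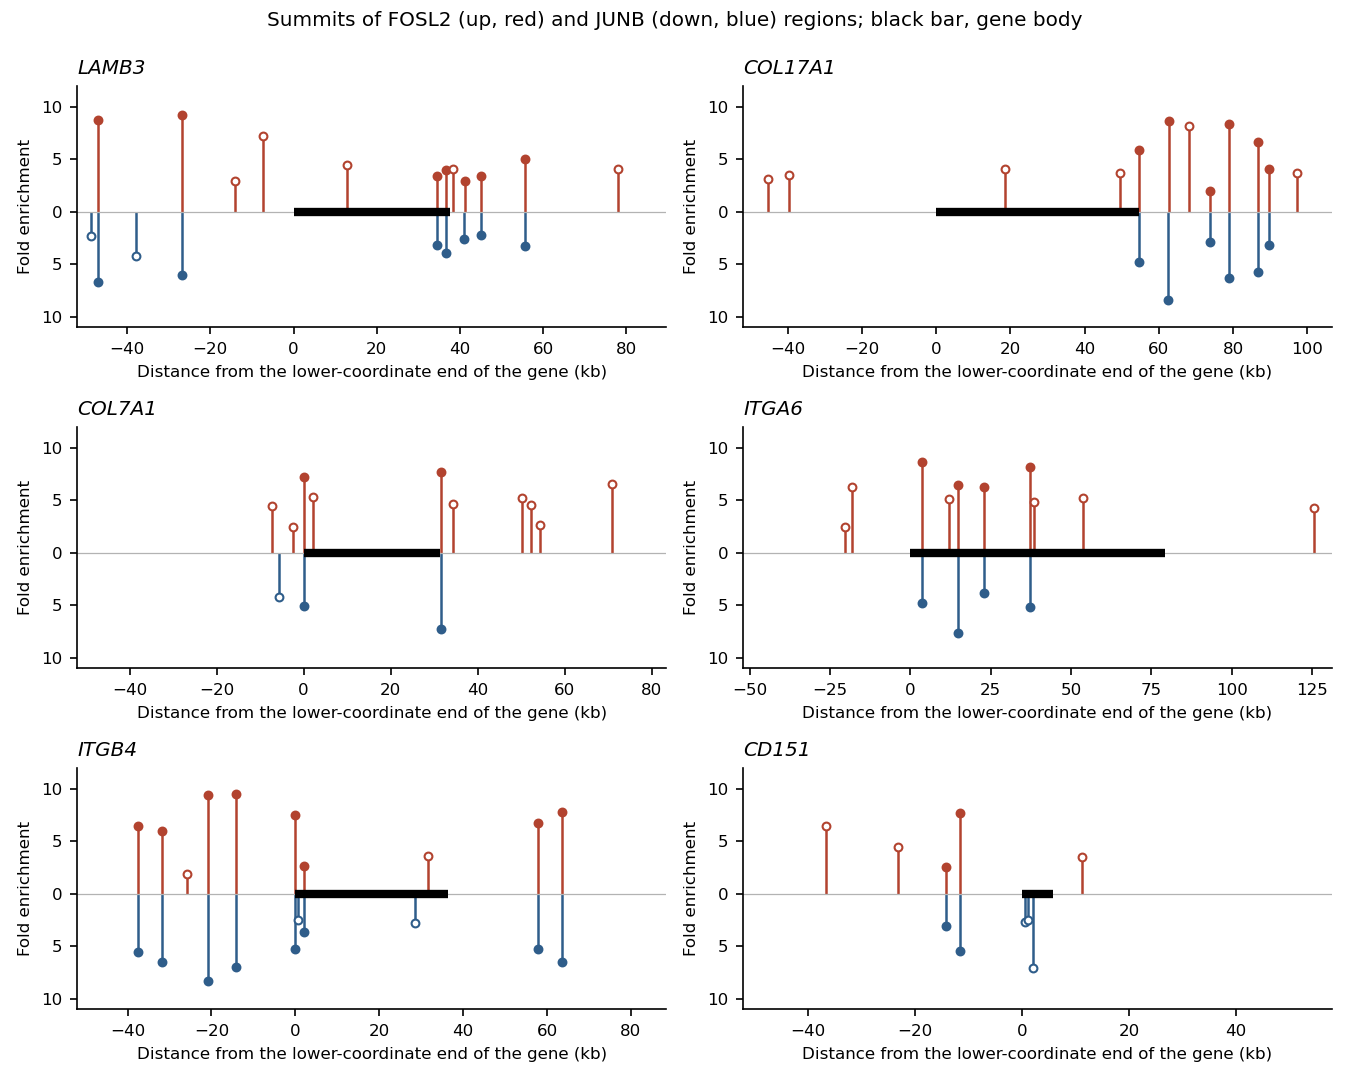
Summits of FOSL2 regions (red, up) and JUNB regions (blue, down) around the 6 other genes by distance from the lower-coordinate end in kb, with fold enrichment as the height, filled points for shared regions and the gene body as a black bar. JUNB regions of ITGA6 stand inside the gene, those of COL17A1 at or above its upper end, and the 3 of CD151 in the gene are open.

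Because the reach took in neighbouring genes, 43 of the 82 FOSL2 and 30 of the 52 JUNB regions had the member as their nearest protein-coding gene. This held for 17 of 23 FOSL2 and 11 of 15 JUNB regions at LAMA3 and for 9 of 10 and 4 of 4 at ITGA6. It held for 3 of 10 FOSL2 and 4 of 10 JUNB regions at ITGB4, and for 0 of 5 and 3 of 5 at CD151. At LAMB3 it held for 6 of 12 FOSL2 and 4 of 9 JUNB regions, at COL17A1 for 5 of 12 and 2 of 6. At COL7A1 it held for 3 of 10 and 2 of 3. At the edge of the rule, the region farthest out was a JUNB region of 2.33 at 48.5 kb from LAMB3. The nearest region left out was a FOSL2 region of 3.65 at 52.6 kb from LAMA3. Also left out were a FOSL2 region of 6.46 at 53.0 kb and a JUNB region of 4.29 at 53.1 kb from ITGA6. That all JUNB regions counted for ITGA6 lay inside the gene therefore depends on the reach of 50 kb.

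A further 20 genes linked to the adhesion complex or the basement membrane were counted by the same rule. The 20 genes were DST, PLEC, ITGA3, ITGB1, KRT5, KRT14, EXPH5, KLHL24, FERMT1, LAMA5, LAMC1, NID1, NID2, COL4A1, COL4A2, COL4A5, COL4A6, HSPG2, FRAS1 and FREM2. Not all of them encode a part of these structures, with EXPH5 and KLHL24 among the exceptions. All 20 had a FOSL2 region and a JUNB region within 50 kb, and 19 had a shared one, the exception being FERMT1, which encodes a focal adhesion adaptor. Their median number of regions was 11 for FOSL2 and 7.5 for JUNB. A shared place at a gene end was found in 3 of the 20, ITGB1, KRT14 and KLHL24, against 14.6% of all genes. With listed RefSeq starts counted beside gene ends, DST joined them, giving 4 of the 20 against 16.4% of all genes. Around the 7 members the highest values were 10.2 for FOSL2 and 8.63 for JUNB, both in shared regions, among 82 FOSL2 and 52 JUNB regions. The 20 other genes had 242 FOSL2 and 165 JUNB regions, counted gene by gene, so their highest values were taken from more regions. Around the 20 other genes the highest JUNB values in shared regions were 10.9 at EXPH5, 10.8 at DST, which encodes the hemidesmosomal plakin BP230, 9.91 at NID1, which encodes the basement membrane protein nidogen, and 9.77 at LAMA5, a laminin alpha chain. These 4 genes were taken by their JUNB values, and their highest FOSL2 values in shared regions were 10.7 at EXPH5, 12.8 at DST, 9.92 at NID1 and 12.1 at LAMA5. The highest FOSL2 value in a shared region of the 20 was 13.6 at COL4A6, a type IV collagen gene named here after its values were seen.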

How the data were processed

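Binding of FOSL2 and JUNB was measured in 3 HaCaT libraries each. Per the submitters' processing notes, Bowtie2, SAMtools 1.8, Picard 1.89, MACS2, deepTools and hg38 were used. The sources used here give neither their order, nor the control, nor the rule that combined libraries. The deposited lists hold, per region, a whole-number score (10 times −log10 p), the fold enrichment as a linear ratio, −log10 p, −log10 q and a summit offset, all the authors' values. Only regions on autosomes and X were kept, which dropped 1 FOSL2 row. Regions were joined to RefSeq gene bodies of GRCh38.p14 with Python 3.11.15 and pandas 2.3.3, by any base within 50 kb. Strand and starts came from RefSeq start windows, which matched 5 of the 7 genes. ITGB4 and CD151 are described by their lower and upper coordinates. The code was tested on simulated data. The members, gene lists and named genes (all members, with end regions and strongest regions, and the 4 other genes of highest shared JUNB value) were chosen with earlier results of these data known. Sequence at summits away from listed starts was not used here.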

Additional observations from a re-analysis of the deposited data

How the results depend on the processing

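Over 9 results 40 alternatives were run. In 25 of them a count stayed within 1.5 times its main value or a share within its 95% Wilson interval, and the other 15, which take in every change of a median, are given here. With a reach of 10 kb the regions fell to 45 (FOSL2) and 31 (JUNB), with the member as nearest gene they were 43 and 30, and JUNB numbered 82 with a reach of 100 kb. The median FOSL2 fold enrichment of 5.14 was 4.84, 5.05 and 6.0 with reaches of 10, 25 and 100 kb and 5.91 where −log10 q had to reach 10. The JUNB median of 4.77 was 3.9, 4.16, 5.05 and 5.53 in the same order. With that limit on −log10 q in both lists 94.3% of JUNB regions were shared, and within 500 bp 4 JUNB regions were at gene ends. The share and medians of the whole lists at that limit are not given here. The values of 94.3%, 5.91 and 5.53 therefore have no comparison beside them. Members with a shared place at an end numbered 3 within 500 bp, 4 within 2500 bp and 4 with −log10 q of at least 10, against 11%, 22.3% and 11.7% of all genes. The alternative windows for the AP-1 motif at summits were not run, because genome sequence was not used here. No paired analysis was possible because each factor had 1 list for its 3 libraries. The depth per library is unknown, so the limit it sets on weak regions is unknown too.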
